A study of Homo sapiens with 16 samples.

Results

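The genes described here are 35 named genes of glycolysis and of the response to low oxygen, taken by symbol from the 20802 genes counted in HEK293 cells, an established human embryonic kidney cell line. They comprise 15 enzymes of the glycolytic pathway (HK1, HK2, GPI, PFKL, PFKM, PFKP, ALDOA, ALDOC, TPI1, GAPDH, PGK1, PGAM1, ENO1, ENO2 and LDHA), 6 regulators and transporters of glycolysis (PFKFB3, PFKFB4, PDK1, SLC2A1, SLC2A3 and SLC16A3), 13 hypoxia-induced genes outside glycolysis (BNIP3, BNIP3L, CA9, VEGFA, ADM, ANKRD37, EGLN1, EGLN3, P4HA1, P4HA2, NDRG1, KDM3A and MXI1) and HIF1A itself. The study set HEK293 cells carrying receptors labelled as optimized (optimized cells) against HEK293 cells with wild-type receptors (wild-type cells), and its title concerns the geometry with which interferon receptors hold their paired JAK kinases. Each genotype was given IFNw, a type I interferon, IFNL3, a type III interferon, or H11, which the labels describe as a high-affinity variant of IFNL3, and each had an untreated group, so that 8 groups of 2 libraries were sequenced. The interferons were used at 100 nM for an exposure given as 15 min, and the time label of every library, untreated ones included, is 24 hr. The labels call the replicates biological but do not say whether they came from separate cultures, or whether either genotype was 1 clone, so the p-values below measure the spread between these libraries.

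Glycolysis converts glucose to pyruvate in the cytosol, and LDHA reduces pyruvate to lactate, which SLC16A3 carries out of the cell. Under low oxygen the prolyl hydroxylases EGLN1 and EGLN3 lose activity, the HIF1A protein escapes degradation through VHL, pairs with ARNT and binds hypoxia response elements with the core letters ACGTG or GCGTG near glycolytic genes and genes of blood vessel growth, mitophagy and pH control. HIF1A is regulated mainly as a protein, so its mRNA level says little about HIF activity. In HEK293 cells, as in most growing cell lines, glycolytic enzymes are among the abundant transcripts also at normal oxygen.

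The libraries held 5331203 to 9822088 reads on genes, and 14033 to 15250 genes had at least 1 read. Of the members, 34 were among the 12704 genes that passed the filter on low counts, and CA9, which encodes a carbonic anhydrase of the cell surface, was not: it had 1 read in replicate 2 of wild-type cells with IFNL3 and 0 reads in the other 15 libraries. Of 10 genes used to check the cell line, 8 exceeded 1 CPM in some library, NEFM and NEFL did not, and the summed level was 116 to 156 CPM. Single genes within that sum moved in opposite directions. In wild-type cells KRT8 averaged 24.7 CPM with IFNw and 6.32 CPM with IFNL3, and CDH2 averaged 20.5 and 42.9 CPM. No marker of endothelium, hepatocytes or red cells reached 1 CPM. Of 6 fibroblast genes, 2 exceeded 1 CPM (COL1A1 and PDGFRA) and 3 had no read, and their summed level was 16.4 to 28.8 CPM with a ligand and 30.02 to 32.6 CPM untreated. COL1A1 fell with IFNw in optimized (-0.80 ± 0.21) and wild-type cells (-1.15 ± 0.21) and with H11 in optimized cells (-0.87 ± 0.21); its part in the results was not tested. The 4 wild-type libraries with H11 or IFNL3 stood apart from the other 12. Longer transcripts were relatively high in them (Spearman correlation of a gene's deviation with transcript length 0.38 to 0.41, across genes within a library). All libraries with IFNw and the optimized libraries with H11 had the opposite trend (-0.42 to -0.45). CD68, the only blood marker above 1 CPM in any library, was highest in those 4 libraries (2.78 to 5.48 CPM, against 0.974 to 2.12 CPM in the other 12). Summed blood markers were 3.05 to 6.26 CPM in those 4 libraries and 0.977 to 2.14 CPM in the other 12. The 2 libraries of untreated optimized cells differed most from each other (Pearson correlation 0.962 on log CPM, against 0.979 to 0.984 in the other 7 groups). Replicate 2 of that group also held the fewest reads on genes (5331203, against 8519241 or more in the other 15 libraries). Levels in CPM are reads per 1000000 reads of the TMM-scaled library. Each gene was counted through 1 target, whose position is not given, so that levels are compared between libraries and not between genes. Named pseudogene copies exist for 13 members (62 for GAPDH, 39 for BNIP3 and 13 for PGAM1), and exons of 19 members overlap a gene on the other strand; whether their reads could be split or shared was not tested.

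Every ligand moved members of the set in both genotypes, some up and some down, as it also did among all tested genes. In optimized cells 11 members rose and 9 fell with IFNw, where 17.5% and 15.9% of all tested genes rose and fell (33.4% called). With H11, 12 rose and 9 fell, against 17.2% and 15.2% of all genes (32.4%), and with IFNL3 11 rose and 4 fell, against 7.26% and 6.05% (13.3%). These counts are 58.8%, 61.8% and 44.1% of the 34 tested members. In wild-type cells 8 rose and 6 fell with IFNw, against 16.6% and 14.8% of all genes (31.4%), 6 rose and 11 fell with H11, against 18.2% and 20.6% (38.8%), and 5 rose and 11 fell with IFNL3, against 18.7% and 21.1% (39.7%), which are 41.2%, 50% and 47.1% of the members. A member is said to have risen or fallen where edgeR's quasi-likelihood test gave a Benjamini-Hochberg adjusted p under 0.05 over all 12704 genes. A lower level in these bulk samples cannot be told apart from less RNA of that gene per cell in all cells or from fewer cells holding it. The counts in optimized cells depended on the pooled estimate of spread and on single libraries: fits of the compared groups alone gave 8 called members with IFNw, 10 with H11 and 2 with IFNL3, the IFNw count was 12 without replicate 1 of the IFNw group and 13 without replicate 2 of the untreated group, and the IFNL3 count was 8 without replicate 1 of the IFNL3 group, 7 without its replicate 2 and 8 without replicate 2 of the untreated group. In wild-type cells the IFNw count of 14 became 9 without either untreated replicate and 8 without replicate 2 of the IFNw group.

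The 6 regulators and transporters did not all move one way. Their median log2 change was 0.53 with IFNw, 0.42 with H11 and 0.61 with IFNL3 in optimized cells, and 0.40, -0.49 and -0.71 with the same ligands in wild-type cells. The median of the 15 enzymes stayed between -0.21 (optimized cells with H11) and 0.23 (optimized cells with IFNL3) in all 6 ligand comparisons. That of the 12 tested HIF targets outside glycolysis was 0.07, -0.01 and 0.08 in optimized cells with IFNw, H11 and IFNL3, and -0.07, -0.42 and -0.35 in wild-type cells. With the transcript length offset the HIF target medians were 0.06 with H11 in optimized and 0.0041 with IFNw in wild-type cells, on the other side of 0. Without replicate 2 of untreated optimized cells the enzyme median with H11 was 0.06, and the HIF target median with IFNw -0.07, in optimized cells. The median over all tested genes lay between -0.05 and -0.01 in the 6 comparisons.

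**Figure D1:**
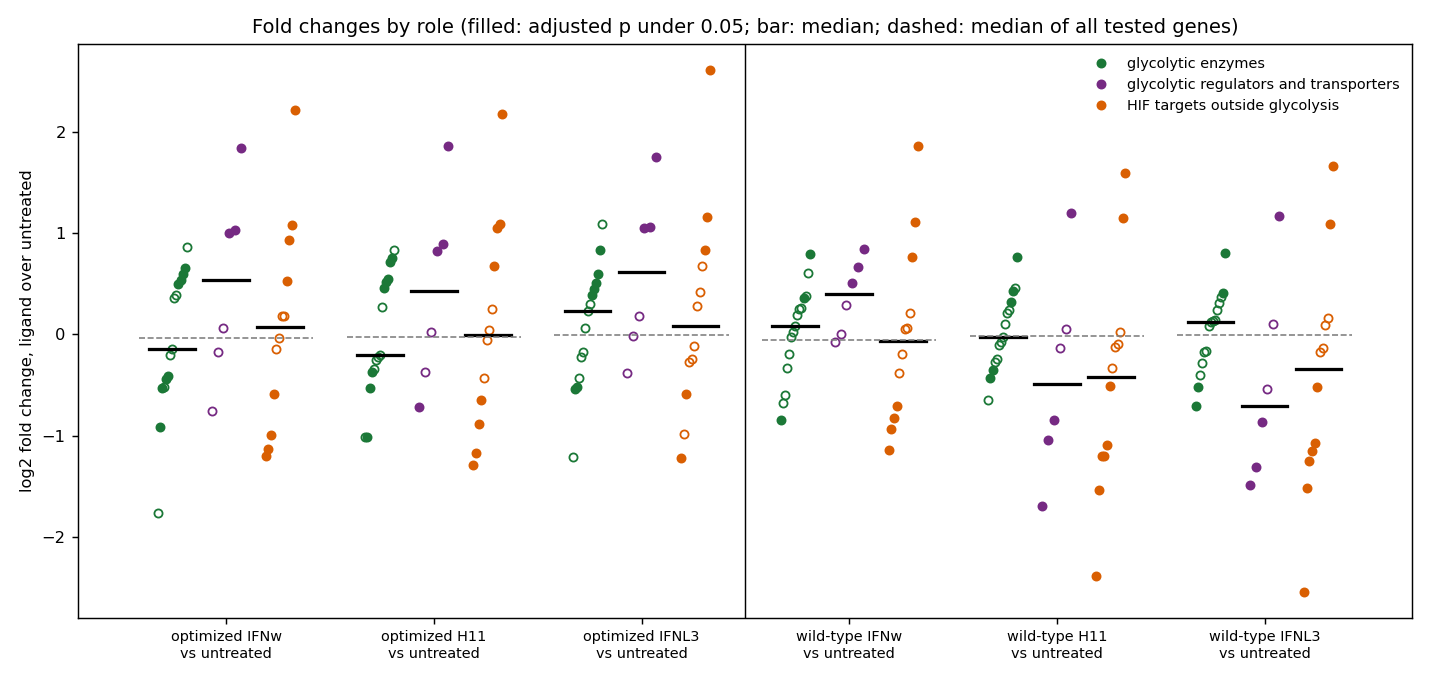
Log2 fold change of each tested member except HIF1A, ligand over untreated, in the 6 ligand comparisons, coloured by role. Filled points passed an adjusted p of 0.05, short bars are medians of a role and dashed lines the medians of all 12704 tested genes. ANKRD37 is the top orange point in the optimized panels (2.17 to 2.61), whereas in wild-type cells with H11 or IFNL3 the lowest point is NDRG1 (-2.39 and -2.54) and the highest is ADM (1.59 and 1.66).

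At the top of the pathway the hexokinases, which trap glucose as glucose 6-phosphate, were called against untreated cells in different comparisons. In optimized cells, HK1 read 22.5 and 24.9 CPM with IFNw, 20.6 and 23.7 CPM with H11, 29.8 and 36.6 CPM with IFNL3 and 39.4 and 50.4 CPM untreated. In wild-type cells, HK1 read 24.2 and 25.5 CPM with IFNw, 41.1 and 46.7 CPM with H11, 51.1 and 47.2 CPM with IFNL3 and 43.4 and 46.1 CPM untreated. HK1 lay below its untreated libraries with every ligand in optimized cells and with IFNw in wild-type cells. It fell with IFNw in optimized cells (log2 change -0.91 ± 0.16, adjusted p = 0.000351) and in wild-type cells (-0.85 ± 0.16, adjusted p = 0.000665), and with H11 in optimized cells (-1.01 ± 0.16, adjusted p = 0.000154). With IFNL3 in optimized cells the value was -0.43 ± 0.16 and was not called.

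HK2, the inducible hexokinase and a HIF target, rose with IFNL3 in both genotypes and with H11 in wild-type cells. In optimized cells, HK2 read 35.1 and 34.03 CPM with IFNw, 32.3 and 36.1 CPM with H11, 46.95 and 73.8 CPM with IFNL3 and 34.2 and 46.1 CPM untreated. In wild-type cells, HK2 read 34.8 and 40.5 CPM with IFNw, 62.4 and 67.3 CPM with H11, 66.4 and 67.3 CPM with IFNL3 and 38.96 and 37.8 CPM untreated. All 4 wild-type libraries with H11 or IFNL3 lay above all untreated libraries of either genotype, and of the optimized libraries with IFNL3 replicate 1 lay just above the untreated range and replicate 2 well above it. HK2 rose in wild-type cells with H11 (log2 change 0.76 ± 0.18, adjusted p = 0.00343) and with IFNL3 (0.80 ± 0.18, adjusted p = 0.00236). The rise with IFNL3 in optimized cells (0.60 ± 0.18) lost its call in 11 of the 16 fits that left out 1 library, with values of 0.24 to 0.60 in those fits. With IFNw, and with H11 in optimized cells, HK2 was not called (log2 changes of -0.21 and -0.22 in optimized cells and -0.03 in wild-type cells).

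GPI, the isomerase that follows, also fell in optimized cells with IFNw and H11. In optimized cells, GPI read 231 and 264 CPM with IFNw, 250.5 and 243 CPM with H11, 311 and 322 CPM with IFNL3 and 325 and 389 CPM untreated. In wild-type cells, GPI read 253 and 279.7 CPM with IFNw, 387 and 449 CPM with H11, 396 and 435 CPM with IFNL3 and 339 and 330.4 CPM untreated. It was below the untreated libraries with all 3 ligands in optimized cells, and below them with IFNw but above them with H11 and IFNL3 in wild-type cells. The fall with H11 in optimized cells passed the test (log2 change -0.53 ± 0.12, adjusted p = 0.00331), as did that with IFNw (-0.53 ± 0.12, lost without replicate 1 of optimized cells with IFNw, where it was -0.39). The rise with H11 in wild-type cells (0.32 ± 0.12) was lost in 9 of the 16 fits without 1 library (0.21 to 0.34).

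The phosphofructokinases, which commit sugar to glycolysis, gave few calls, and none that held in every fit without 1 library. In optimized cells, PFKL read 84.5 and 96.1 CPM with IFNw, 85.7 and 101 CPM with H11, 83.01 and 84.4 CPM with IFNL3 and 107 and 134 CPM untreated. In wild-type cells, PFKL read 97.4 and 105 CPM with IFNw, 75.3 and 81.6 CPM with H11, 80.4 and 83.2 CPM with IFNL3 and 98.7 and 101 CPM untreated. The liver-type PFKL was below the untreated libraries with every ligand in optimized cells and with H11 and IFNL3 in wild-type cells, but its 4 calls, at log2 changes between -0.52 (optimized cells with IFNL3) and -0.35 (wild-type cells with H11), were each lost in 3 to 15 of the 16 fits without 1 library. In optimized cells, the platelet-type PFKP read 80.9 and 87.8 CPM with IFNw, 90.7 and 101 CPM with H11, 75.1 and 82.6 CPM with IFNL3 and 91.9 and 139 CPM untreated. In wild-type cells, PFKP read 107 and 108 CPM with IFNw, 81.04 and 93.8 CPM with H11, 84.96 and 83.2 CPM with IFNL3 and 97.1 and 91.4 CPM untreated. It was called in optimized cells with IFNw (-0.44 ± 0.16) and IFNL3 (-0.54 ± 0.16); these were lost in 10 and 3 of the 16 fits, and without replicate 2 of untreated optimized cells, which held the highest PFKP level, the values were -0.13 and -0.22. In optimized cells, the muscle-type PFKM read 0.536 and 0.748 CPM with IFNw, 0.385 and 1.85 CPM with H11, 1.32 and 0.558 CPM with IFNL3 and 1.63 and 2.98 CPM untreated. In wild-type cells, PFKM read 1.11 and 0.131 CPM with IFNw, 0.957 and 0.910 CPM with H11, 1.34 and 0.808 CPM with IFNL3 and 0.868 and 1.10 CPM untreated. Its groups with a ligand overlapped the untreated group in wild-type cells and, with H11, in optimized cells, and PFKM passed the test in none of the 10 comparisons with a ligand or between genotypes.

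Of the aldolases, which split fructose 1,6-bisphosphate, ALDOA ranged over 7.36 to 11.3 CPM and was not called. ALDOC, the brain-type aldolase, was called. In optimized cells, ALDOC read 14.7 and 11.1 CPM with IFNw, 11.2 and 15.6 CPM with H11, 14.2 and 14.8 CPM with IFNL3 and 9.37 and 6.65 CPM untreated. In wild-type cells, ALDOC read 10.6 and 11.7 CPM with IFNw, 4.61 and 4.72 CPM with H11, 4.38 and 4.58 CPM with IFNL3 and 6.29 and 8.28 CPM untreated. Every optimized library with a ligand lay above every untreated library, while the 4 wild-type libraries with H11 or IFNL3 were the lowest of the 16. The difference between genotypes was 1.52 ± 0.25 with H11 (adjusted p = 6.36e-05) and 1.69 ± 0.24 with IFNL3 (adjusted p = 5.3e-05). Against untreated cells ALDOC rose in optimized cells by 0.66 with IFNw, 0.71 with H11 and 0.83 with IFNL3 on the log2 scale and fell in wild-type cells with IFNL3 (log2 change -0.70); each of these 4 calls was lost in 2 to 7 of the 16 fits, and with an offset for transcript length only the optimized IFNL3 call was left among them.

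Triose phosphate isomerase, TPI1, was more variable. In optimized cells, TPI1 read 668 and 446 CPM with IFNw, 661 and 765 CPM with H11, 555 and 489 CPM with IFNL3 and 432 and 416 CPM untreated. In wild-type cells, TPI1 read 534 and 759 CPM with IFNw, 367 and 456 CPM with H11, 350.5 and 405 CPM with IFNL3 and 506 and 491 CPM untreated. It rose with H11 in optimized cells (log2 change 0.75 ± 0.18, adjusted p = 0.00459), where it also exceeded wild-type cells with H11 (0.79 ± 0.18, adjusted p = 0.0016). With an offset for transcript length these values were 0.44 and 0.27 and neither was called. GAPDH, a frequent reference gene, ranged over 2849 to 4112 CPM and was called once among the 10 comparisons, lower in optimized than in wild-type cells with H11 (-0.30 ± 0.12), a call lost in 12 of the 16 fits (-0.35 to -0.25).

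PGK1, which makes the first ATP of the pathway, differed between the genotypes under the type III ligands. In optimized cells, PGK1 read 970.4 and 971 CPM with IFNw, 955 and 966 CPM with H11, 888 and 869 CPM with IFNL3 and 751 and 592 CPM untreated. In wild-type cells, PGK1 read 962 and 978 CPM with IFNw, 572 and 555 CPM with H11, 519 and 539.9 CPM with IFNL3 and 782 and 736 CPM untreated. All libraries with IFNw and all optimized libraries with H11 or IFNL3 lay above every untreated library, and the 4 wild-type libraries with H11 or IFNL3 lay below every one. PGK1 rose in optimized cells with IFNw (0.53 ± 0.11, adjusted p = 0.00171) and H11 (0.52 ± 0.11, adjusted p = 0.00219) and fell in wild-type cells with IFNL3 (log2 change -0.52 ± 0.11, adjusted p = 0.00179). The call with H11 in wild-type cells (-0.43 ± 0.11) was lost without replicate 2 of that group (-0.41) or replicate 1 of untreated wild-type cells (-0.39); that with IFNw in wild-type cells (0.35 ± 0.11) was lost without any one of its 4 libraries (0.31 to 0.42); and that with IFNL3 in optimized cells (0.39 ± 0.11) was lost without either IFNL3 replicate or replicate 2 of the untreated group (0.23 to 0.40).

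PGAM1 and ENO1, the enzymes that follow, moved up rather than apart. In optimized cells, PGAM1 read 498 and 512 CPM with IFNw, 493 and 484 CPM with H11, 455 and 498 CPM with IFNL3 and 279.8 and 392 CPM untreated. In wild-type cells, PGAM1 read 543 and 499.9 CPM with IFNw, 401 and 407 CPM with H11, 409.7 and 387 CPM with IFNL3 and 304 and 298 CPM untreated. Every library with a ligand except replicate 2 of wild-type cells with IFNL3 lay above all 4 untreated libraries, and that one lay above both of its own. PGAM1 rose in all 6 ligand comparisons, most in wild-type cells with IFNw (0.79 ± 0.13, adjusted p = 0.00022) and by 0.59 with IFNw, 0.54 with H11 and 0.51 with IFNL3 in optimized cells and by 0.42 with H11 and 0.40 with IFNL3 in wild-type cells. Both wild-type calls with H11 and IFNL3 were lost without any one of their 4 libraries (0.41 to 0.44 and 0.36 to 0.44), and in optimized cells the values without replicate 1 of the untreated group were 0.37 with IFNw, 0.32 with H11 and 0.29 with IFNL3, the last no longer called. The optimized IFNL3 call was also lost without replicate 2 of that group (0.44), and its value was 0.77 without replicate 2 of the untreated group. With an offset for transcript length the 3 optimized values were 0.27, 0.24 and 0.42 for IFNw, H11 and IFNL3, and none was called.

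In optimized cells, ENO1 read 2289 and 2338 CPM with IFNw, 2199 and 2318 CPM with H11, 2210.4 and 2277 CPM with IFNL3 and 1750.4 and 1532 CPM untreated. In wild-type cells, ENO1 read 2178 and 2262 CPM with IFNw, 1905 and 2073 CPM with H11, 1946 and 1975 CPM with IFNL3 and 1716 and 1997 CPM untreated. The optimized ligand libraries of this enolase all lay above every untreated library of either genotype, and the wild-type H11 and IFNL3 libraries overlapped their untreated ones. ENO1 rose in optimized cells with IFNw (0.49 ± 0.11, adjusted p = 0.00221), H11 (0.46 ± 0.11, adjusted p = 0.00388) and IFNL3 (0.45 ± 0.11, lost without either IFNL3 replicate or replicate 2 of the untreated group, 0.36 to 0.48); with the length offset the IFNw and H11 values were 0.32 and 0.29 and were not called. The response difference between genotypes did not pass the test for ENO1 with any ligand. ENO2, the neuronal enolase, was not called in any of the 10 comparisons and ranged over 72.9 to 161 CPM.

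LDHA, which ends the pathway with lactate, was not called in any of the 10 comparisons. It lay between 434 and 590.3 CPM in 15 libraries and at 89.1 CPM in replicate 2 of untreated optimized cells. In untreated optimized cells, the ratio of replicate 2 to replicate 1 was ranked over 1675 genes averaging 100 CPM or more across all 16 libraries. LDHA ranked 4 from the lowest (log2 -2.28), and 9 of these genes were lower by 2 or more on the log2 scale in replicate 2. The positive values for LDHA in optimized cells, 0.86 ± 0.38 with IFNw, 0.83 ± 0.38 with H11 and 1.09 ± 0.38 with IFNL3, were 0.14, 0.10 and 0.37 without that library, not called. Without replicate 1 of the same group they were 2.43, 2.39 and 2.66, called.

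**Figure D2:**
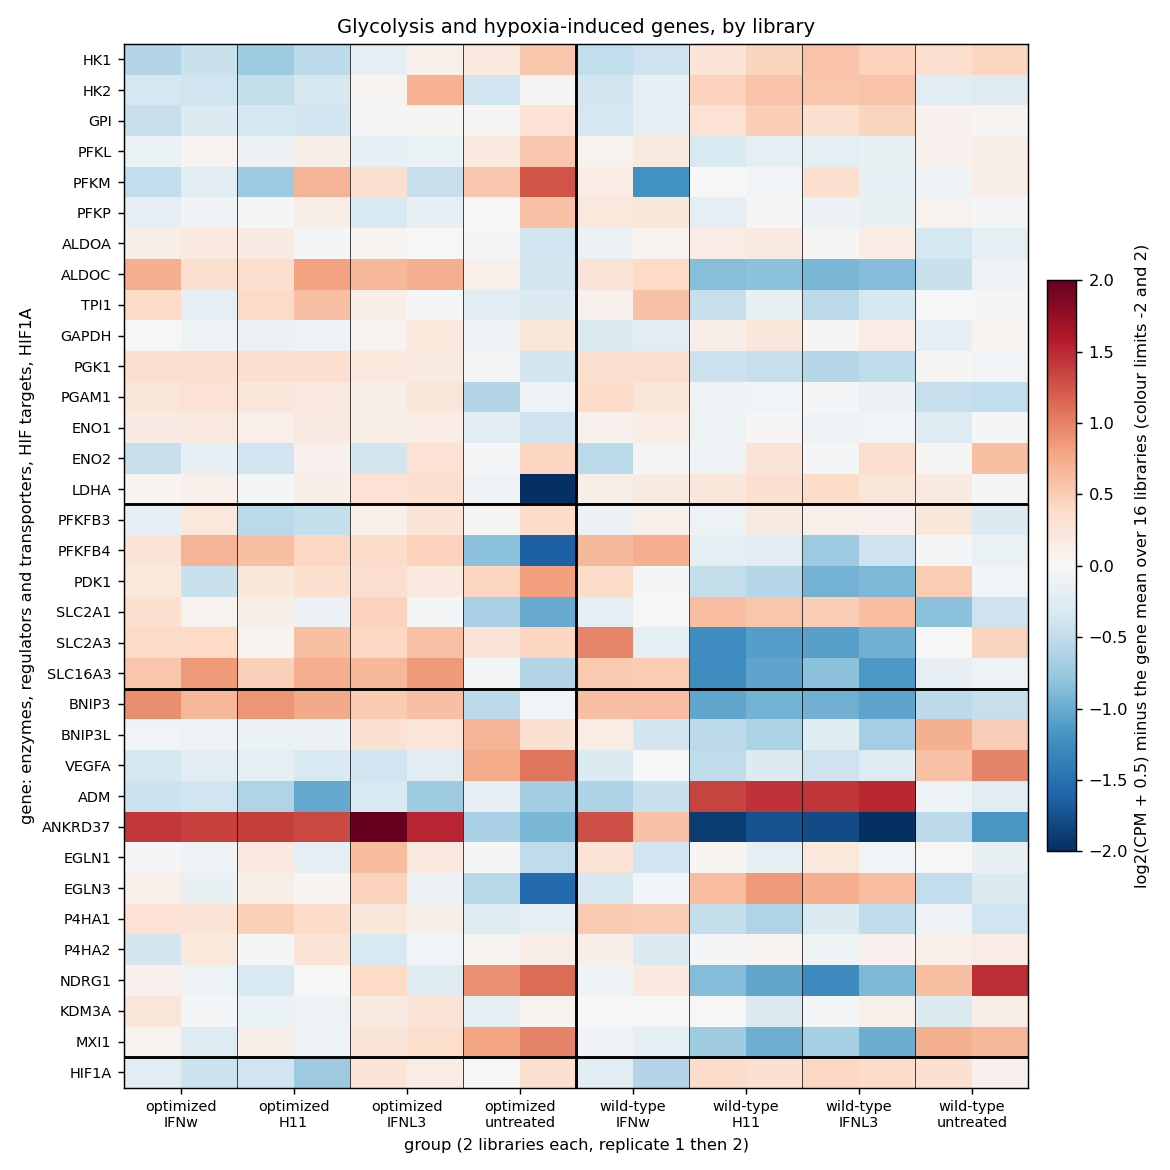
Level of the 34 tested members in all 16 libraries, as log2(CPM + 0.5) minus the gene's mean over the libraries; rows are ordered by role and columns by group, with replicate 1 left of replicate 2. The wild-type H11 and IFNL3 columns are blue for ALDOC, PGK1, SLC2A3, SLC16A3, BNIP3 and ANKRD37 and red for HK2, SLC2A1, ADM and EGLN3, and LDHA is dark blue only in replicate 2 of untreated optimized cells.

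Among the regulators, the bifunctional enzymes that set fructose 2,6-bisphosphate did not move together. In optimized cells, PFKFB3 read 20.9 and 27.05 CPM with IFNw, 16.03 and 16.8 CPM with H11, 25.2 and 28.1 CPM with IFNL3 and 23.9 and 30.5 CPM untreated. In wild-type cells, PFKFB3 read 21.6 and 25.1 CPM with IFNw, 21.7 and 26.7 CPM with H11, 25.1 and 24.9 CPM with IFNL3 and 27.5 and 19.2 CPM untreated. The optimized libraries with H11 were the lowest of the 16, and their fall against untreated cells (-0.72 ± 0.20, adjusted p = 0.0122) was lost without either H11 replicate or replicate 2 of the untreated group (-0.71 to -0.55).

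In optimized cells, PFKFB4 read 5.36 and 7.23 CPM with IFNw, 6.80 and 5.97 CPM with H11, 5.70 and 6.14 CPM with IFNL3 and 2.24 and 1.05 CPM untreated. In wild-type cells, PFKFB4 read 7.10 and 7.49 CPM with IFNw, 3.74 and 3.64 CPM with H11, 2.41 and 3.14 CPM with IFNL3 and 4.23 and 3.89 CPM untreated. The optimized ligand libraries all exceeded every untreated library, whereas wild-type cells exceeded theirs with IFNw alone. PFKFB4 rose in optimized cells with IFNw (1.84 ± 0.35, adjusted p = 0.00044), H11 (1.86 ± 0.35, adjusted p = 0.000422) and IFNL3 (1.74 ± 0.35, adjusted p = 0.00227). Untreated optimized cells lay below untreated wild-type cells (-1.20 ± 0.36, not called). The wild-type rise with IFNw (0.84 ± 0.29) was lost without any one of its 4 libraries (0.78 to 0.93).

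PDK1, the kinase that shuts pyruvate out of the citric acid cycle, fell in wild-type cells with type III ligands. In optimized cells, PDK1 read 6.56 and 3.99 CPM with IFNw, 6.67 and 7.11 CPM with H11, 7.23 and 6.47 CPM with IFNL3 and 7.74 and 10.3 CPM untreated. In wild-type cells, PDK1 read 7.38 and 5.52 CPM with IFNw, 3.91 and 3.64 CPM with H11, 2.68 and 2.78 CPM with IFNL3 and 8.25 and 5.39 CPM untreated. The 4 wild-type libraries with H11 or IFNL3 were the lowest of the 16. The fall was -1.31 ± 0.31 with IFNL3 (adjusted p = 0.00275), and leaving out the first untreated wild-type replicate gave -0.98, which was not called. With H11 it was -0.85 ± 0.29 and was lost without either H11 replicate or without replicate 1 of the untreated group, where it was -0.51.

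SLC2A1, the widely expressed glucose transporter GLUT1, rose in all 6 ligand comparisons. In optimized cells, SLC2A1 read 141 and 118 CPM with IFNw, 122 and 103 CPM with H11, 154 and 110.4 CPM with IFNL3 and 71.2 and 55.5 CPM untreated. In wild-type cells, SLC2A1 read 97.7 and 111 CPM with IFNw, 172 and 165 CPM with H11, 157 and 172 CPM with IFNL3 and 63.1 and 84.1 CPM untreated. Each of the 12 ligand libraries lay above all 4 untreated ones, and those of wild-type cells given H11 or IFNL3 were the highest. The rise was 1.02 ± 0.18 with IFNw (adjusted p = 0.000319), 0.82 ± 0.18 with H11 (adjusted p = 0.00207) and 1.06 ± 0.18 with IFNL3 (adjusted p = 0.000891) in optimized cells. In wild-type cells it was 0.50 ± 0.18 with IFNw, 1.19 ± 0.18 with H11 (adjusted p = 6.14e-05) and 1.16 ± 0.18 with IFNL3 (adjusted p = 7.89e-05). The wild-type IFNw call was lost without replicate 2 of that group (0.44) or replicate 1 of the untreated group (0.31).

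The transporter SLC2A3 (GLUT3) and the lactate exporter SLC16A3 (MCT4) went down where SLC2A1 was highest. In optimized cells, SLC2A3 read 5.09 and 5.11 CPM with IFNw, 3.98 and 5.97 CPM with H11, 5.19 and 5.91 CPM with IFNL3 and 4.58 and 5.25 CPM untreated. In wild-type cells, SLC2A3 read 7.93 and 3.28 CPM with IFNw, 1.30 and 1.49 CPM with H11, 1.52 and 1.71 CPM with IFNL3 and 3.80 and 5.29 CPM untreated. It fell in wild-type cells with H11 (-1.69 ± 0.41, adjusted p = 0.00286) and IFNL3 (-1.49 ± 0.40, adjusted p = 0.00634), but not with any ligand in optimized cells. Leaving out the second untreated wild-type replicate ended the IFNL3 call (-1.23).

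In optimized cells, SLC16A3 read 39.9 and 48.9 CPM with IFNw, 37.7 and 44.8 CPM with H11, 42.8 and 48.98 CPM with IFNL3 and 26.2 and 17.7 CPM untreated. In wild-type cells, SLC16A3 read 38.98 and 38.6 CPM with IFNw, 11.1 and 12.7 CPM with H11, 15.02 and 11.8 CPM with IFNL3 and 23.98 and 25.1 CPM untreated. The 3 kinds of level did not overlap: wild-type cells with H11 or IFNL3 below, untreated cells between, and all other ligand libraries above. SLC16A3 rose in optimized cells with IFNw (0.998 ± 0.19, adjusted p = 0.000585), H11 (0.89 ± 0.19, adjusted p = 0.00162) and IFNL3 (1.04 ± 0.19, adjusted p = 0.00137). It fell in wild-type cells with H11 (-1.04 ± 0.19, adjusted p = 0.000466) and IFNL3 (-0.87 ± 0.19, adjusted p = 0.0019) and rose there with IFNw (0.66 ± 0.19), a call lost without either untreated replicate (0.63 to 0.69).

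Among the HIF targets outside glycolysis, the BH3-type mitophagy receptors BNIP3 and BNIP3L differed. In optimized cells, BNIP3 read 434 and 359.7 CPM with IFNw, 418 and 385 CPM with H11, 325 and 344 CPM with IFNL3 and 158 and 219.8 CPM untreated. In wild-type cells, BNIP3 read 346 and 349 CPM with IFNw, 109.8 and 117 CPM with H11, 116 and 109 CPM with IFNL3 and 158 and 165 CPM untreated. All libraries with IFNw and all optimized ligand libraries exceeded every untreated library, and the 4 wild-type libraries with H11 or IFNL3 were the lowest of the 16. BNIP3 rose in optimized cells with IFNw (1.07 ± 0.14, adjusted p = 1.98e-05), H11 (1.09 ± 0.14, adjusted p = 1.77e-05) and IFNL3 (0.83 ± 0.14, adjusted p = 0.000878) and in wild-type cells with IFNw (1.11 ± 0.14, adjusted p = 1.48e-05). Its falls in wild-type cells were -0.51 ± 0.14 with H11, lost without replicate 1 of that group or replicate 2 of the untreated one (-0.48 to -0.46), and -0.52 ± 0.14 with IFNL3, lost without replicate 2 of that group (-0.48).

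In optimized cells, BNIP3L read 37.2 and 36.02 CPM with IFNw, 35.1 and 35.4 CPM with H11, 47.7 and 45.5 CPM with IFNL3 and 62.2 and 47.6 CPM untreated. In wild-type cells, BNIP3L read 42.9 and 29.3 CPM with IFNw, 26.5 and 24.7 CPM with H11, 32.4 and 23.8 CPM with IFNL3 and 63.5 and 54.5 CPM untreated. Every ligand group but optimized cells with IFNL3 lay below its untreated libraries. BNIP3L fell in wild-type cells with H11 (-1.20 ± 0.18, adjusted p = 9.06e-05) and IFNL3 (-1.07 ± 0.18, adjusted p = 0.000247). The falls with IFNw in wild-type cells (-0.71 ± 0.19) and with IFNw and H11 in optimized cells (-0.59 and -0.65) were lost in 2 to 3 of the 16 fits, and without replicate 1 of untreated optimized cells the last 2 were -0.38 and -0.43; without the IFNw library of replicate 2 or replicate 1 of the untreated group the first was -0.43 and -0.60.

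ANKRD37, a small ankyrin repeat protein and a HIF target, rose in 4 and fell in 2 of the 6 ligand comparisons. Its transcript length (1141 bases) was the shortest among the members, and its exons overlap UFSP2 on the other strand. Its ligand values with the transcript length offset are not given here. In optimized cells, ANKRD37 read 41.6 and 40.3 CPM with IFNw, 40.8 and 38.95 CPM with H11, 62.3 and 45.3 CPM with IFNL3 and 9.57 and 7.88 CPM untreated. In wild-type cells, ANKRD37 read 38.4 and 23.4 CPM with IFNw, 3.74 and 4.22 CPM with H11, 4.11 and 3.05 CPM with IFNL3 and 10.5 and 6.58 CPM untreated. Every library with IFNw and every optimized library with H11 or IFNL3 stood above all untreated ones, and the wild-type libraries with H11 or IFNL3 stood below all of them. ANKRD37 rose 4.63-fold with IFNw (log2 2.21 ± 0.26, adjusted p = 5.13e-06), 4.51-fold with H11 (log2 2.17 ± 0.26, adjusted p = 6.71e-06) and 6.09-fold with IFNL3 (log2 2.61 ± 0.26, adjusted p = 1.63e-06) in optimized cells, and 3.62-fold with IFNw in wild-type cells (log2 1.86 ± 0.25, adjusted p = 2.95e-05). It fell in wild-type cells with H11 (log2 -1.09 ± 0.29), a call lost without replicate 1 of the H11 group (-1.01) or replicate 1 of the untreated group (-0.72), and with IFNL3 (log2 -1.25 ± 0.30), lost without replicate 1 of the untreated group (-0.88).

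The 250 bases before the start of 5 members are printed here. ANKRD37 and ADM had the largest positive and negative response differences between the genotypes, BNIP3, PGK1 and SLC16A3 were called in that test with both H11 and IFNL3, and SLC16A3 stands for windows without the core letters of a hypoxia response element. The sequences are RefSeq promoters of build GRCh38.p14, written 5′ to 3′ on the gene's strand and ending at the base before the start; capitals mark ACGTG or GCGTG read on either strand (CACGT or CACGC on the strand printed), and a run of CACGTG counts once on each strand. ANKRD37 is shown from chr4:185396591-185396840, plus strand, BNIP3 from chr10:131981924-131982173, minus strand, PGK1 from chrX:78103998-78104247, plus strand, ADM from chr11:10304823-10305072, plus strand and SLC16A3 from chr17:82228185-82228434, plus strand.
ANKRD37: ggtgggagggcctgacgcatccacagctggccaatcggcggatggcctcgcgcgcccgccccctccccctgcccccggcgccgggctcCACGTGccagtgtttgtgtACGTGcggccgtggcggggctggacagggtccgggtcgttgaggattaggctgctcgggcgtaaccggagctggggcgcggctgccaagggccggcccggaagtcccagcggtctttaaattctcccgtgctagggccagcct
BNIP3: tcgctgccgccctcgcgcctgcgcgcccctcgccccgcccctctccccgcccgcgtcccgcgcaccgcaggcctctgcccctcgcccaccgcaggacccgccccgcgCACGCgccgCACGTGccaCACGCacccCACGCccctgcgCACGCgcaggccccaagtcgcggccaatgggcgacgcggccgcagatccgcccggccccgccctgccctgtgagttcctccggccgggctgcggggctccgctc
PGK1: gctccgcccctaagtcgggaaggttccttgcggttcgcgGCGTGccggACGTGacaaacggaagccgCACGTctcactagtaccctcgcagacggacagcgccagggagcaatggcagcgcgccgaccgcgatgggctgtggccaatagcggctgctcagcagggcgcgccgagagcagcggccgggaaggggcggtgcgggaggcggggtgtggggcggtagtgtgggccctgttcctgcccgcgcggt
ADM: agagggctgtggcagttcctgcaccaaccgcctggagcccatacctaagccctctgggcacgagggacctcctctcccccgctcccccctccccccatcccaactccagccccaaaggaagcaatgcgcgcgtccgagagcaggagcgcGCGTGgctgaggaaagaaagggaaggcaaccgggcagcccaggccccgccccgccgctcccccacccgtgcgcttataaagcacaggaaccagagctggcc
SLC16A3: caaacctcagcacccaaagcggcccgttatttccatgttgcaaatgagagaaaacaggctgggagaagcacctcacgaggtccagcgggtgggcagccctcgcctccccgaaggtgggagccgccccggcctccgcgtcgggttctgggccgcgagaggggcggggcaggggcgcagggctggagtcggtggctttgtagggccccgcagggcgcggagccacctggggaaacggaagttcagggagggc
The ANKRD37 window held 3 matches to ACGTG, the BNIP3 window 2 to ACGTG and 4 to GCGTG, the PGK1 window 2 and 1, the ADM window 0 and 1, and the SLC16A3 window none. Of the 31 members with a RefSeq promoter in the table used, 20 held ACGTG or GCGTG on either strand in these 250 bases, against 43.2% of 35116 promoters (18.5% for ACGTG and 32.2% for GCGTG alone). Each member was counted by 1 promoter, whereas the background counts every promoter listed. The members were picked as glycolytic or hypoxia-induced genes, so these shares are not a test of enrichment. By role, 10 of 15 enzymes, 2 of 5 regulators and transporters, 7 of 10 other HIF targets and HIF1A held a match. CA9, which did not pass the filter on low counts, is among those 7. A match is a stretch of letters and not a measured binding site. SLC2A3, BNIP3L, VEGFA and NDRG1 were not matched.

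Both secreted ligands of the set, VEGFA and ADM, were measured, and they parted. VEGFA, which drives blood vessel growth, fell with every ligand in both genotypes. In optimized cells, VEGFA read 33.3 and 37.02 CPM with IFNw, 37.3 and 34.5 CPM with H11, 32.5 and 37.04 CPM with IFNL3 and 72.1 and 90.7 CPM untreated. In wild-type cells, VEGFA read 35.4 and 43.1 CPM with IFNw, 29.8 and 35.2 CPM with H11, 31.9 and 35.5 CPM with IFNL3 and 64.1 and 85.4 CPM untreated. All 12 ligand libraries lay below all 4 untreated libraries. The fall was -1.20 ± 0.17 with IFNw (adjusted p = 4.41e-05), -1.17 ± 0.17 with H11 (adjusted p = 5.96e-05) and -1.22 ± 0.17 with IFNL3 (adjusted p = 0.000113) in optimized cells. It was -0.93 ± 0.17 with IFNw (adjusted p = 0.000478), -1.20 ± 0.17 with H11 (adjusted p = 3.53e-05) and -1.15 ± 0.17 with IFNL3 (adjusted p = 5.45e-05) in wild-type cells, and all 6 calls held in each of the 16 fits without 1 library.

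ADM, the vasodilator peptide adrenomedullin, rose in wild-type cells with the type III ligands. In optimized cells, ADM read 13.1 and 13.5 CPM with IFNw, 11.5 and 8.53 CPM with H11, 14.4 and 10.7 CPM with IFNL3 and 15.9 and 10.9 CPM untreated. In wild-type cells, ADM read 11.4 and 13.01 CPM with IFNw, 46.5 and 49.3 CPM with H11, 49.01 and 51.5 CPM with IFNL3 and 16.7 and 15.2 CPM untreated. The 4 wild-type libraries with H11 or IFNL3 stood far above the other 12. ADM rose there 3.01-fold with H11 (log2 1.59 ± 0.19, adjusted p = 6.33e-06) and 3.15-fold with IFNL3 (log2 1.66 ± 0.19, adjusted p = 3.94e-06) and was not called with any ligand in optimized cells or with IFNw in wild-type cells.

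**Figure D3:**
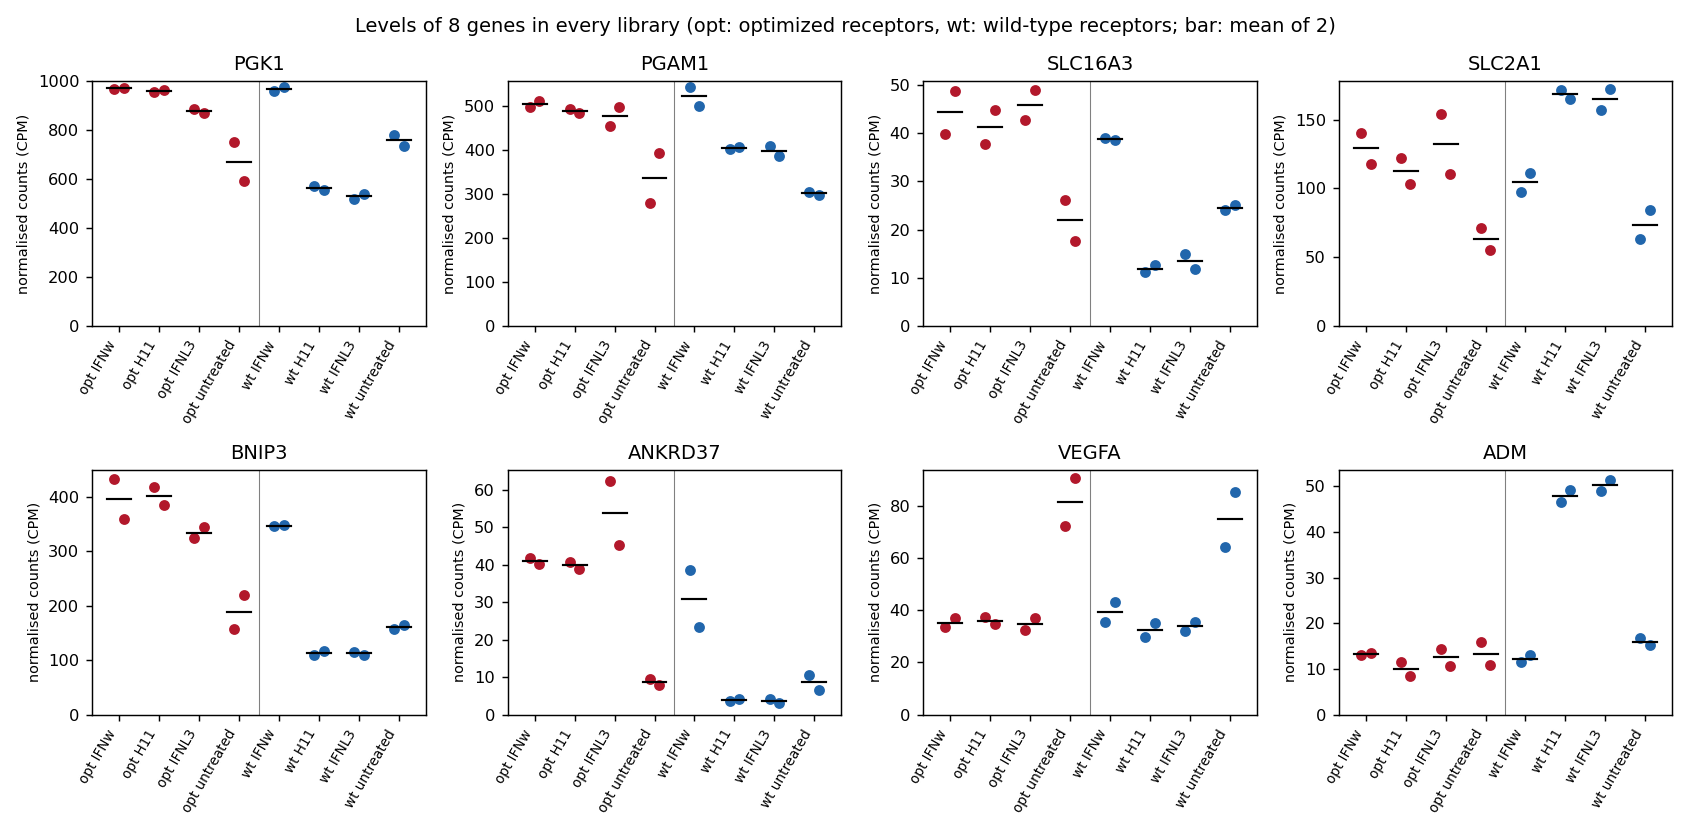
Level (CPM, linear axis from 0) of 8 members in each library: points are libraries, bars the mean of the 2, red the optimized and blue the wild-type cells. PGK1, SLC16A3, BNIP3 and ANKRD37 are high in all ligand groups except wild-type cells with H11 and IFNL3, where they are lowest and ADM is highest (46.5 to 51.5 CPM); VEGFA is low in every ligand group and PGAM1 high in every one.

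Of the oxygen sensors, the prolyl hydroxylase EGLN1 (PHD2) was not called in any of the 10 comparisons and ranged over 20.5 to 45.6 CPM. EGLN3 (PHD3), the strongly HIF-induced one, was called. In optimized cells, EGLN3 read 14.3 and 12.1 CPM with IFNw, 14.6 and 13.9 CPM with H11, 18.5 and 12.3 CPM with IFNL3 and 8.96 and 4.20 CPM untreated. In wild-type cells, EGLN3 read 10.6 and 12.9 CPM with IFNw, 20.7 and 24.5 CPM with H11, 22.4 and 20.9 CPM with IFNL3 and 9.33 and 10.97 CPM untreated. The highest 4 libraries were wild-type cells with H11 or IFNL3, and the lowest was replicate 2 of untreated optimized cells. EGLN3 rose in wild-type cells with H11 (1.15 ± 0.25, adjusted p = 0.00163) and IFNL3 (1.09 ± 0.25, adjusted p = 0.00256). In optimized cells it rose by 0.93 with IFNw, 1.05 with H11 and 1.16 with IFNL3; without replicate 2 of the untreated group these were 0.56, 0.67 and 0.78 and not called, and without its replicate 1 they were 1.65, 1.76 and 1.88. The IFNw and IFNL3 calls were also lost without replicate 1 of their own ligand group (0.85 and 0.84).

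The collagen prolyl 4-hydroxylase subunit P4HA1 rose with IFNw. In optimized cells, P4HA1 read 15.8 and 15.6 CPM with IFNw, 18.1 and 16.8 CPM with H11, 15.2 and 14.1 CPM with IFNL3 and 10.7 and 11.2 CPM untreated. In wild-type cells, P4HA1 read 18.8 and 18.3 CPM with IFNw, 9.13 and 8.27 CPM with H11, 10.6 and 8.88 CPM with IFNL3 and 12.3 and 9.67 CPM untreated. Every optimized ligand library and both wild-type libraries with IFNw lay above all untreated libraries. P4HA1 rose with IFNw in wild-type cells (0.76 ± 0.18, adjusted p = 0.00411, 0.60 and not called without replicate 2 of the untreated group) and with H11 in optimized cells (0.67 ± 0.19, adjusted p = 0.0101, 0.65 and not called without replicate 1 of the H11 group). The optimized IFNw call (0.52 ± 0.19) was lost without any one of its 4 libraries (0.49 to 0.56). P4HA2 (9.11 to 14.5 CPM) and the histone demethylase KDM3A (16.5 to 24.2 CPM) were not called in any of the 10 comparisons.

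NDRG1, a stress-responsive gene often read as a hypoxia marker, and MXI1, a MAX partner that opposes MYC, fell in several ligand comparisons. In optimized cells, NDRG1 read 3.48 and 2.99 CPM with IFNw, 2.57 and 3.27 CPM with H11, 4.48 and 2.68 CPM with IFNL3 and 6.62 and 7.71 CPM untreated. In wild-type cells, NDRG1 read 3.06 and 3.81 CPM with IFNw, 1.57 and 1.32 CPM with H11, 1.07 and 1.53 CPM with IFNL3 and 5.21 and 9.97 CPM untreated. All ligand libraries lay below all 4 untreated ones, and wild-type cells with H11 and IFNL3 held the 4 lowest. In wild-type cells NDRG1 was 5.24-fold lower than untreated with H11 (log2 -2.39 ± 0.39, adjusted p = 9.92e-05) and 5.81-fold lower with IFNL3 (log2 -2.54 ± 0.40, adjusted p = 7.03e-05). The falls with IFNw in wild-type cells (-1.14) and with IFNw and H11 in optimized cells (-1.13 and -1.29) were each lost in 2 to 3 of the 16 fits; the wild-type value was -0.94 and -1.28 without replicate 1 or 2 of the IFNw group and -0.60 when the second untreated replicate was left out.

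In optimized cells, MXI1 read 70.6 and 56.6 CPM with IFNw, 73.6 and 63.3 CPM with H11, 81.4 and 86.5 CPM with IFNL3 and 118 and 136 CPM untreated. In wild-type cells, MXI1 read 64.5 and 60.04 CPM with IFNw, 41.4 and 34.2 CPM with H11, 42.8 and 33.9 CPM with IFNL3 and 112 and 108 CPM untreated. All 12 ligand libraries lay below all untreated ones, with wild-type cells with H11 and IFNL3 lowest. MXI1 fell in optimized cells with IFNw (-0.99 ± 0.15, adjusted p = 9.82e-05), H11 (-0.88 ± 0.15, adjusted p = 0.000278) and IFNL3 (-0.59 ± 0.15, lost without either IFNL3 replicate or replicate 2 of the untreated group, -0.63 to -0.49). In wild-type cells it fell with IFNw (-0.82 ± 0.15, adjusted p = 0.000573), H11 (-1.54 ± 0.15, adjusted p = 1.13e-06) and IFNL3 (-1.52 ± 0.15, adjusted p = 1.2e-06).

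HIF1A, which encodes the oxygen-regulated subunit of the factor, was itself lower with IFNw. In optimized cells, HIF1A read 41.8 and 36.3 CPM with IFNw, 36.7 and 29.1 CPM with H11, 59.2 and 54.00 CPM with IFNL3 and 48.6 and 61.3 CPM untreated. In wild-type cells, HIF1A read 41.8 and 32.3 CPM with IFNw, 63.3 and 60.2 CPM with H11, 65.1 and 63.00 CPM with IFNL3 and 60.3 and 51.9 CPM untreated. Libraries with IFNw and the optimized libraries with H11 lay below all 4 untreated libraries, and those with IFNL3 in either genotype did not. HIF1A mRNA fell in optimized cells with H11 (-0.73 ± 0.17, adjusted p = 0.00292, -0.54 and not called without replicate 2 of that group). Its falls with IFNw were -0.49 ± 0.17 in optimized cells, lost in 4 of the 16 fits and -0.32 without replicate 2 of untreated optimized cells, and -0.60 ± 0.16 in wild-type cells, lost without the IFNw library of replicate 2 (-0.39) or replicate 1 of the untreated group (-0.49).

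Set against wild-type cells directly, members were called under the type III ligands and none untreated or with IFNw. Untreated, 0 members were called by edgeR (2 at an unadjusted p under 0.05, and 0 by DESeq2; background 0%), and with IFNw also 0 (1 at an unadjusted p under 0.05, and 0 by DESeq2; background 0%). With IFNw, 33 of the 34 intervals of the difference (95%) lay within a 2-fold change either way, and untreated 30 did; these intervals, not the missed threshold, bound how far the genotypes could differ. Without replicate 1 of untreated optimized cells 7 members were called between untreated cells. With H11, 11 members were higher and 9 lower in optimized cells, against 25.6% and 26.1% of all genes (51.7% called), and with IFNL3 12 were higher and 3 lower, against 18.1% and 15.1% (33.2%). Those counts are 58.8% and 44.1% of the 34 tested members.

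With H11 the members higher in optimized cells included ANKRD37 (3.32 ± 0.27, adjusted p = 2.68e-08), BNIP3 (1.82 ± 0.14, adjusted p = 1.89e-08), SLC2A3 (1.81 ± 0.41, adjusted p = 0.0012) and SLC16A3 (1.79 ± 0.19, adjusted p = 7.76e-07). Those lower included ADM (-2.25 ± 0.20, adjusted p = 8.34e-08), HK1 (-0.99 ± 0.16, adjusted p = 7.18e-05), HK2 (-0.92 ± 0.19, adjusted p = 0.000488), HIF1A (-0.91 ± 0.16, adjusted p = 0.000201) and GPI (-0.76 ± 0.12, adjusted p = 6.88e-05); with the length offset the HK2 value was -0.55. With IFNL3, ANKRD37 was higher by 3.90 ± 0.28 (adjusted p = 2.51e-08), SLC16A3 by 1.77 ± 0.19 (adjusted p = 2.81e-06) and BNIP3 by 1.57 ± 0.14 (adjusted p = 4.69e-07), and ADM was lower (-1.999 ± 0.19, adjusted p = 9.03e-07). The median differences with H11 and IFNL3 were 0.83 and 1.21 for the regulators and transporters, 0.30 and 0.47 for the HIF targets, 0.13 and -0.01 for the enzymes and -0.05 and -0.01 over all genes. With the transcript length offset they were 1.23 and 1.42 for the regulators and transporters, 0.55 and 0.58 for the HIF targets and -0.22 and -0.11 for the enzymes, so that the enzyme median with H11 changed sign. The H11 calls of TPI1 (0.27) and PFKFB3 (-0.37) and the IFNL3 call of GPI (-0.33) were lost with that offset.

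The test of the response difference, which subtracts each genotype's own untreated level, called 0 members with IFNw (edgeR; 3 at an unadjusted p under 0.05, and 0 by DESeq2; background 0%). It called 16 with H11, 10 with a higher and 6 with a lower response in optimized cells, against 19.5% and 17.4% of all genes (36.9% called). With IFNL3 it called 11, 10 higher and 1 lower, against 11.1% and 7.31% (18.4%). ANKRD37 had the largest positive differences, 3.27 ± 0.39 with H11 and 3.85 ± 0.39 with IFNL3, and ADM the largest negative ones, -2.02 ± 0.29 and -1.77 ± 0.28. PFKFB4, SLC16A3, BNIP3, ALDOC, SLC2A3, PGK1 and MXI1 were called with both ligands in the positive direction. HK1, HK2, GPI, PFKFB3 and HIF1A were called negative with H11; with IFNL3 their values were -0.56, -0.20, -0.48, -0.12 and -0.14, none called. With the length offset the H11 calls of HK2 (-0.65), PFKFB3 (-0.63), ALDOC (0.91) and TPI1 (0.47) and the IFNL3 call of NDRG1 (1.54) were lost. VEGFA, which fell everywhere, differed by 0.03 ± 0.24 with H11 and -0.07 ± 0.24 with IFNL3, with 95% intervals of -0.44 to 0.50 and -0.54 to 0.39. These contrasts use the same libraries as the comparisons above.

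**Figure D4:**
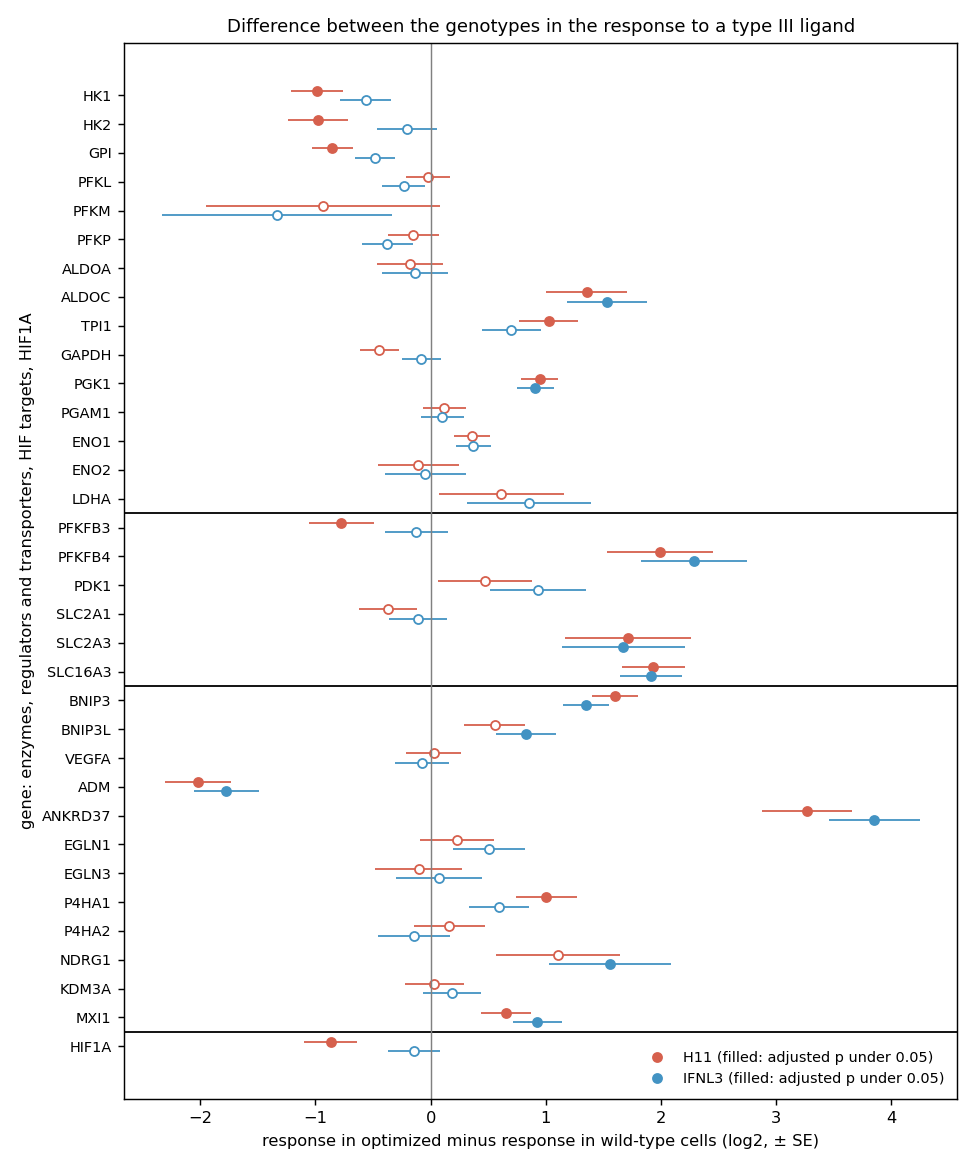
Response in optimized minus response in wild-type cells (log2, with 1 SE) of the 34 tested members to H11 (red) and IFNL3 (blue); filled points passed an adjusted p of 0.05. ANKRD37 lies farthest right (3.27 and 3.85) and ADM farthest left (-2.02 and -1.77), while VEGFA lies at 0.03 and -0.07.

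Comparing the ligands within a genotype, H11 and IFNL3 gave no called difference in wild-type cells (0 members by edgeR, 0 at an unadjusted p under 0.05 and 0 by DESeq2; background 0%). Their log2 differences there ran from -0.20 (SLC2A3) to 0.46 (PDK1), and 29 of the 34 intervals lay within 2-fold. In optimized cells 4 members were lower with H11 than with IFNL3 and 0 higher, against 6.86% and 10.7% of all genes (17.6% called): HK2 (-0.82 ± 0.19), HIF1A (-0.78 ± 0.17), PFKFB3 (-0.70 ± 0.20) and HK1 (-0.58 ± 0.16). The count was 1 without either H11 replicate or without replicate 2 of the IFNL3 group, and 8 in the fit of the compared groups alone. IFNw set against IFNL3 left HK2 (-0.80 ± 0.19), HIF1A (-0.54 ± 0.16) and HK1 (-0.48 ± 0.16) lower in optimized cells, where 7.58% of all genes were lower and 11.5% higher (19.1% called), a count of 3 that was 6 with the compared groups alone. It was 1 without replicate 1 of either group, 0 without replicate 2 of either, and 5 without either untreated replicate of optimized cells. In wild-type cells the same contrast called 21 members, 13 higher and 8 lower with IFNw, against 25.9% and 27.2% of all genes (53.1% called), led by ANKRD37 (3.10 ± 0.28, adjusted p = 7.65e-08) and ADM (-2.04 ± 0.20, adjusted p = 1.95e-07).

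Other genes of the same pathways were counted from 3 further lists. Of 22 tested other glycolysis genes, 4 rose and 3 fell with IFNw, 5 and 4 with H11 and 1 and 0 with IFNL3 in optimized cells, and 3 and 3, 1 and 5, and 1 and 5 in wild-type cells with the same ligands. Those called were 31.8%, 40.9% and 4.55% of the list in optimized cells, where 33.4%, 32.4% and 13.3% of all genes were called, and 27.3% with each ligand in wild-type cells, where 31.4%, 38.8% and 39.7% of all genes were. MPC2, a subunit of the mitochondrial pyruvate carrier, rose with IFNw in optimized (1.34 ± 0.17) and wild-type cells (1.26 ± 0.17) and with H11 in optimized cells (1.27 ± 0.17) but fell with H11 (-0.87 ± 0.17) and IFNL3 (-0.997 ± 0.17) in wild-type cells. ADPGK, the ADP-dependent glucokinase, rose with IFNw in optimized (0.66 ± 0.17) and wild-type cells (0.55 ± 0.16) and with H11 in optimized cells (0.94 ± 0.17). Of 29 tested other HIF targets, 6 rose and 5 fell with IFNw, 5 and 2 with H11 and 4 and 3 with IFNL3 in optimized cells, and 7 and 3, 6 and 6, and 5 and 7 in wild-type cells. Against the same shares of all genes, those called were 37.9%, 24.1% and 24.1% of the list in optimized cells and 34.5%, 41.4% and 41.4% in wild-type cells.

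Among those HIF targets DDIT4, an inhibitor of mTORC1, fell in all 6 ligand comparisons, between -3.14 ± 0.18 (wild-type cells with H11) and -1.86 ± 0.17 (wild-type cells with IFNw). The glycoprotein hormone STC2 also fell in all 6, with log2 changes of -2.65 ± 0.15 with IFNw, -2.45 ± 0.15 with H11 and -1.97 ± 0.15 with IFNL3 in optimized cells, and of -2.40 ± 0.15, -1.30 ± 0.14 and -1.25 ± 0.14 in wild-type cells. HIGD1A, a mitochondrial protein of the respiratory chain, rose with IFNw (1.54 ± 0.23), H11 (1.43 ± 0.23) and IFNL3 (0.73 ± 0.23) in optimized cells and with IFNw in wild-type cells (1.40 ± 0.22). WSB1, a substrate receptor of a ubiquitin ligase, rose with IFNw (1.05 ± 0.31) and H11 (1.34 ± 0.31) in optimized cells and with IFNw (1.15 ± 0.29), H11 (2.68 ± 0.28) and IFNL3 (2.77 ± 0.27) in wild-type cells. Of 12 tested genes of the oxygen-sensing machinery, 4 rose and 1 fell with IFNw, 4 and 0 with H11 and 1 and 0 with IFNL3 in optimized cells, and 4 and 1, 5 and 2, and 5 and 2 in wild-type cells. Those called were 41.7%, 33.3% and 8.33% of the list in optimized cells and 41.7%, 58.3% and 58.3% in wild-type cells, against the shares of all genes given above. The VHL complex members RBX1, TCEB1 and TCEB2 rose with IFNw in optimized (0.99 ± 0.12, 1.02 ± 0.12 and 1.21 ± 0.19) and wild-type cells (1.32 ± 0.12, 1.06 ± 0.12 and 0.98 ± 0.19) and with H11 in optimized cells (0.87 ± 0.12, 1.03 ± 0.12 and 1.01 ± 0.19). With IFNL3 in optimized cells TCEB1 rose (0.45 ± 0.12). In wild-type cells RBX1 and TCEB2 fell with H11 (-0.90 ± 0.13 and -1.08 ± 0.19) and IFNL3 (-0.92 ± 0.13 and -0.97 ± 0.19). CREBBP and EP300 of the same list rose there with H11 (1.42 ± 0.41 and 1.00 ± 0.21), and CREBBP with IFNL3 (1.74 ± 0.41). ARNT fell with IFNw in wild-type cells (-1.20 ± 0.25). For these other pathway genes, values with the transcript length offset are not given. The part of transcript length in their changes was not tested.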

How the data were processed

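Total RNA of HEK293 cells was sequenced on an Ion Torrent platform, per the labels' protocols, and the authors deposited whole-number counts of reads for 20812 targets per library in 16 libraries. The genome build is hg19, per the submitters' processing notes; no source used here names the aligner, the counting tool or its use of strand. The 10 ERCC spike-in targets (at most 1 read each) were left out, and of 28 gene symbols that a spreadsheet had turned into dates 27 were restored; none is a member. Groups were taken from the genotype and treatment labels and replicates from the biological replicate label.

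Genes were kept by edgeR's filterByExpr, scaled by TMM and fitted in edgeR 4.0.16 (R 4.3.3) with 1 coefficient per group over all 16 libraries, so that groups of 2 share 1 estimate of the spread (biological coefficient of variation 13.26%). Contrasts were tested by quasi-likelihood with Benjamini-Hochberg adjustment over 12704 genes at 0.05, and errors are standard errors of the log2 change. Values in CPM are the deposited counts per 1000000 TMM-scaled reads; those of lower counts carry more counting error. The steps were tested on simulated counts. Alternatives were DESeq2 1.42.0, DESeq2 size factors, no filter on low counts, the compared groups alone, the replicate number as a block, an offset for transcript length (a natural spline with 5 degrees of freedom, lengths from GENCODE, available for 95.5% of the tested genes) and each library left out in turn; a fit leaving out the 4 H11 and IFNL3 libraries of wild-type cells was chosen after seeing the data.

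The members and all lists were chosen with earlier results of these data known. Members are given with every library value where they were called in 3 or more of 10 comparisons (6 of a ligand, 4 between genotypes), were among the 2 largest changes in one, were called in a response difference, or were HIF1A. The other members are given by their range. The other pathway genes named were picked from the 3 largest called changes of their list in a comparison. They averaged 5 CPM or more in a compared group, and not every gene that met this rule is named. Promoters were searched in RefSeq sequences of GRCh38.p14, and coordinates of that build were not mixed with those of hg19.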

Additional observations from a re-analysis of the deposited data

Results flagged for a closer look

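The values listed here are response differences, the log2 change with a ligand in optimized cells minus that in wild-type cells, that passed edgeR's quasi-likelihood test of the difference itself. With H11 the response was higher in optimized cells for ANKRD37 (3.27), PFKFB4 (1.99), SLC16A3 (1.93), SLC2A3 (1.72) and BNIP3 (1.6). It was also higher for ALDOC (1.36), TPI1 (1.02), P4HA1 (1.01), PGK1 (0.95) and MXI1 (0.66). It was lower for ADM (-2.02), HK1 (-0.98), HK2 (-0.98), HIF1A (-0.87), GPI (-0.85) and PFKFB3 (-0.78). The PFKFB4 values with either type III ligand include its untreated difference, log2 -1.20 in optimized against wild-type cells, which was not called.

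With IFNL3 the response was higher in optimized cells for ANKRD37 (3.85), PFKFB4 (2.29), SLC16A3 (1.91), SLC2A3 (1.67) and NDRG1 (1.56). ALDOC (1.53), BNIP3 (1.35), MXI1 (0.93), PGK1 (0.91) and BNIP3L (0.83) were higher as well, and ADM was lower (-1.77). The NDRG1 call was lost in 14 of the 16 fits without 1 library, with values of 1.01 to 1.83 in those fits. The calls of SLC2A3 and BNIP3L were each lost in 6 of the 16 fits (1.41 to 1.77 and 0.62 to 0.86), and that of PFKFB3 with H11 in 9 (-0.79 to -0.54). With H11, SLC2A3 lost its call in 3 fits (1.42 to 1.62) and MXI1 in 4 (0.52 to 0.63). The other 21 calls held in every fit without 1 library. With the transcript length offset, HK2 (-0.65), PFKFB3 (-0.63), ALDOC (0.91) and TPI1 (0.47) were no longer called with H11, nor NDRG1 (1.54) with IFNL3.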

How the results depend on the processing

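Of the counts of called members, those in optimized cells depended most on the choice of libraries. Fits of the compared groups alone gave 8 members with IFNw, 10 with H11 and 2 with IFNL3 against untreated optimized cells (20, 21 and 15 over all libraries), 8 for H11 and 6 for IFNw against IFNL3 in optimized cells (4 and 3). Without the low-count filter 1 member was called between untreated genotypes (0 with it). The replicate numbers did not meet the bar for pairing (correlation of same-numbered deviations over 0.1 in every pair of groups): it was over 0.1 in 27 of 28 pairs, with a median of 0.152 and a range of 0.083 to 0.206. A missed bar does not show that same-numbered libraries were unrelated, and 6.39% of all tested genes were called for the replicate number. The main fit held no replicate term. With the replicate block the count for IFNw against IFNL3 in optimized cells was 6, and the other 16 counts stayed within 1.5 times. Other alternatives, the added fit among them, left all counts within 1.5 times.

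Leaving out 1 library gave 8 to 17 members with IFNw, 12 to 19 with H11 and 13 to 18 with IFNL3 in wild-type cells, and 12 to 22, 16 to 23 and 7 to 16 in optimized cells. Between genotypes it gave 0 to 7 untreated, 0 to 0 with IFNw, 14 to 23 with H11 and 12 to 17 with IFNL3, and for the response difference 0 to 3, 14 to 19 and 8 to 14. H11 against IFNL3 gave 0 to 0 in wild-type and 1 to 6 in optimized cells, and IFNw against IFNL3 16 to 23 and 0 to 5. One called member reversed, PGAM1 for IFNw against IFNL3 in wild-type cells (-0.11 with the transcript length offset, 0.39 without); the cause was not tested. Of the list medians, 14 of 51 moved by more than the spread between replicates with the transcript length offset (9 changed sign, 1 of them with such a move: the enzymes between genotypes with H11, -0.22 with and 0.13 without). Fits of the compared groups alone moved 3 (the enzymes for IFNw against IFNL3 in wild-type cells were 0.08, and -0.12 over all libraries), and fits without 1 library moved 52 of 816, 6 of these with a change of sign. Across all alternatives 3926 values of single members kept their direction and call, 396 lost the call. With 2 libraries per group, changes of members at a few CPM, such as PFKM and NDRG1, were measured least precisely.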

Other observations

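Of the 34 tested members, 2 (5.88%) were called for the replicate number, a share near that of all 12704 tested genes (6.39%). ENO2, the neuronal enolase, was higher in replicate 2 in 8 of 8 groups (log2 0.46 ± 0.06, SE; edgeR adjusted p = 4.72e-05 for the replicate number as a term over all libraries). EGLN1, the main oxygen sensor, was lower in replicate 2 in 8 of 8 groups (-0.33 ± 0.08, adjusted p = 0.015), and PFKL was higher in 8 of 8 but not called (0.13 ± 0.06, adjusted p = 0.169). These 3 members moved one way in all 8 groups, as did 912 (7.18%) of all tested genes.

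ENO2 and EGLN1 were not called in any ligand or genotype comparison. What the replicate number stands for is not given in the labels.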
